A study of Mus musculus with 20 samples.

Results

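The 10 genes of blood vessel growth and of the vessel wall described here were measured in epididymal visceral adipose tissue of mice: the growth factors Vegfa, Vegfb and Vegfc, their receptors Kdr and Flt1, the angiopoietins Angpt1 and Angpt2, their receptor Tek, the endothelial junction gene Pecam1 and the oxygen-regulated transcription factor Hif1a. The genes were chosen by name, and all 10 had at least 1 probe that could be tested, among 25618 tested genes. They were covered by 23 of the 56605 probes on the array, and 20 of these 23 passed the filter on dim probes.

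The tissue came from 20 male C57bl/6J mice of the third generation of 2 lineages, with 1 array per mouse. Both lineages had received the same growing diet, which was enriched in high-oleic sunflower oil in the control/oleic lineage and in a fish oil rich in eicosapentaenoic acid (EPA) in the omega 3 lineage. The Ref group (STD Cont, n = 6) was of the oleic lineage and ate a low-fat diet, the HFoleic group (HFD Cont, n = 6) was of the oleic lineage and ate a high-fat high-sucrose diet, and the HFepa group (HFD O3, n = 8) was of the EPA lineage and ate the high-fat high-sucrose diet. According to the paper, the HFoleic and HFepa mice were matched for body weight and then fed the high-fat high-sucrose diet. It reports that on this diet the HFepa mice gained less weight and less fat mass than the HFoleic mice. All mice were killed during fasting, and the RNA was from whole tissue. No EPA-lineage mice on the low-fat diet were analysed here, so that lineage and diet cannot be told apart in HFepa vs. Ref.

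As background, vascular endothelial growth factors (VEGF) made by adipocytes, macrophages and stromal cells bind receptors on endothelial cells. Kdr (VEGF receptor 2) carries most of the growth signal, whereas Flt1 (VEGF receptor 1) binds Vegfa and Vegfb tightly and also acts as a decoy. Angpt1 activates the receptor Tek and keeps vessels stable, and Angpt2 often opposes it. Hif1a is stabilised at low oxygen mainly at the protein level, which an RNA array does not measure, and drives Vegfa among other genes. Adipose tissue that expands needs new capillaries, and Vegfa is its best known capillary growth factor.

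Levels were quantile-normalized median signal intensities on the log2 scale, and a log2 difference of 1 is a doubling. Each probe binds with its own strength, so the levels of different genes were not ranked against each other. The adjusted p-values come from limma over all 39390 tested probes, with a threshold of 0.05, and a gene stands for its brightest tested probe. Between 66.1% and 71.9% of the spots that were not controls were well above background on the 20 arrays. All 18 endothelial and all 8 adipocyte marker genes were well above background on every array. The arrays lay on 3 slides, each of which held all groups, but slide 2 held only 1 HFoleic array. The number of arrays limits the precision.

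In HFoleic vs. Ref, 6 of the 10 genes changed. Vegfa, Vegfb and Angpt1 fell, and Vegfc, Angpt2 and Hif1a rose, while Kdr, Flt1, Tek and Pecam1 did not pass the test on their brightest probes. Of all tested genes, 31.8% were called in this comparison, 15.2% as higher and 16.7% as lower. The median log2 fold change was -0.13 over the 10 genes and -0.04 over all tested genes. Without adjustment, 7 of the 10 genes had a p-value under 0.05, against 42.2% of all tested genes.

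In both comparisons of the HFepa group, limma called 0 of the 10 genes. In HFepa vs. Ref, 2.46% of all tested genes (1.03% higher, 1.42% lower) and 2.26% of the tested probes were called, and at an unadjusted p under 0.05 there were 4 of the 10 genes and 21.6% of all tested genes. In HFepa vs. HFoleic, 0% of the tested genes were called on their brightest probe and 0.00254% of the tested probes, with 4 of the 10 genes and 20.8% of all tested genes at an unadjusted p under 0.05. Without 1 array, the number of tested genes called ranged from 100 (without Ref 6) to 1801 (without HFepa 3) in HFepa vs. Ref, where it was 630 with all arrays, and from 0 to 1978 (without HFepa 1) in HFepa vs. HFoleic. The first number also moved by over 1.5 times without Ref 3, Ref 4, Ref 5, Ref 7, HFepa 1, HFepa 5, HFepa 6, HFepa 7 or HFepa 8, and the second was 1117 without HFoleic 1 and 1 without HFepa 6. Both comparisons with Ref share the same 6 Ref arrays.

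**Figure D1:**
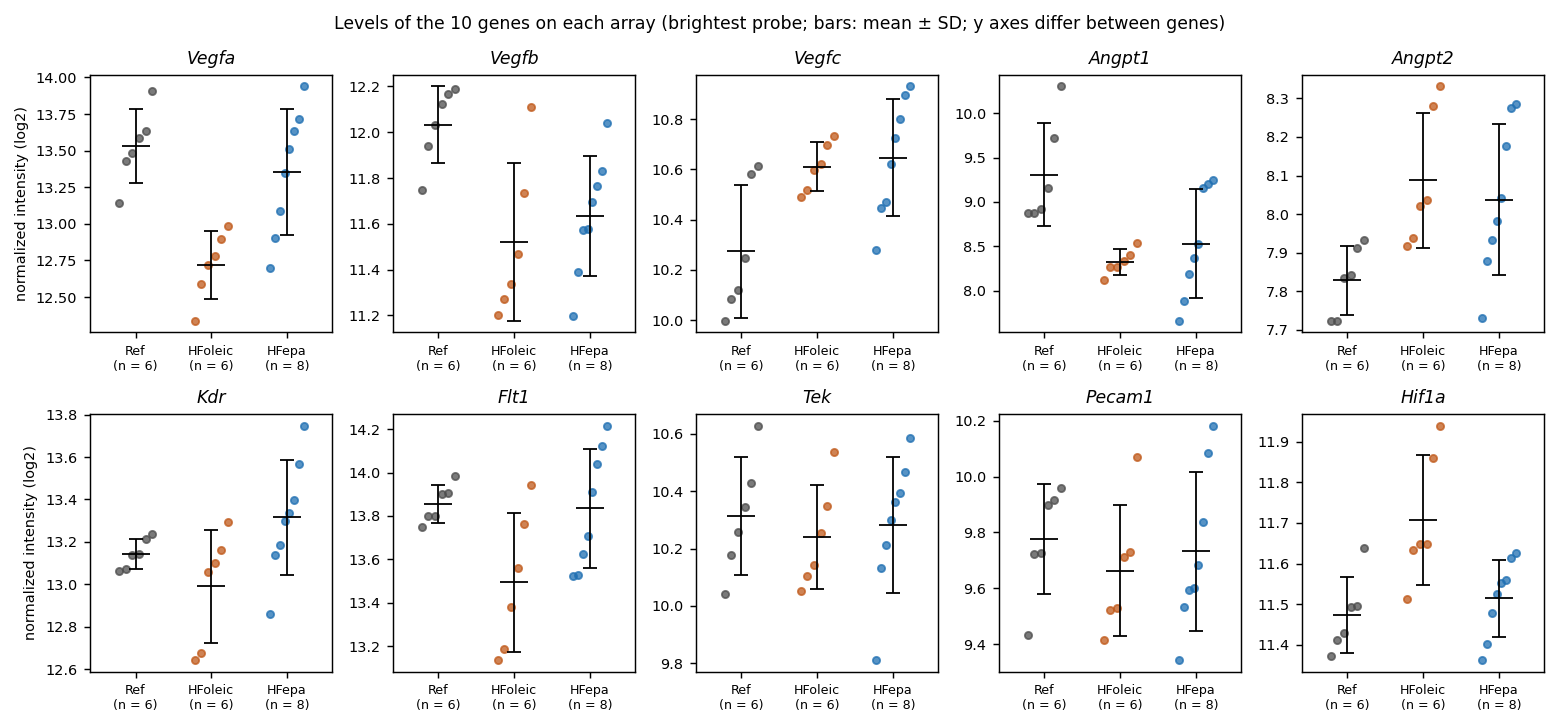
Normalized intensity (log2, vertical axes that differ between genes) of the brightest probe of each of the 10 genes on each array, by group, with the mean and SD as bars. The 6 HFoleic points lie below all 6 Ref points for Vegfa and Angpt1, and the groups overlap for the other 8 genes. Of all tested genes, 14% showed no overlap between HFoleic and Ref.

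Marker levels of some other cell types differed between HFoleic and Ref. The paper's own computed estimate from these data found no difference in the shares of main cell types. Of 12 macrophage markers, 11 were called higher in HFoleic vs. Ref (91.7%, beside 15.2% of all tested genes). The mean log2 level of this list ranged from 11.29 to 11.92 in Ref, from 12.69 to 14.06 in HFoleic and from 11.60 to 14.11 in HFepa. In HFepa, the arrays HFepa 1 (14.11) and HFepa 6 (13.64) stood above the other 6, which lay between 11.60 and 12.58. Of 8 fibroblast and progenitor markers, 4 were called higher in HFoleic vs. Ref (50%, beside 15.2% of all tested genes). Their mean log2 level ranged from 12.45 to 12.98 in Ref, 13.03 to 13.75 in HFoleic and 12.58 to 13.29 in HFepa. The adipocyte list spanned 15.49 to 15.78 in Ref, 15.37 to 15.67 in HFoleic and 15.33 to 15.68 in HFepa. In HFoleic vs. Ref, 3 of its 8 genes were called (37.5%, beside 31.8% of all tested genes). None of the 7 T and B cell markers or the 6 mesothelial markers was called in any comparison.

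Of 10 epididymis and testis markers, 4 were tested, and their mean log2 level exceeded 8 on 3 arrays, with 9.32 in Ref 3, 8.95 in Ref 6 and 9.28 in HFoleic 5. These are called below the 3 arrays with epididymis and testis markers. The cut of 8 was set after seeing the data. HFepa 4, just below it at 7.85, is not among them, and the next array, HFepa 2, was at 6.59. Of the tested markers, Prm2 and Tnp1 were well above background on all 20 arrays, Prm1 on 17 and Adam7 on 6. Of the others, Rnase9 was well above background on 0 arrays, and Crisp1, Lcn5 and Lcn8 on 3 or fewer. The part of these cell types in the results below was not tested. In whole tissue, fewer cells of a type and less RNA per cell cannot be told apart.

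**Figure D2:**
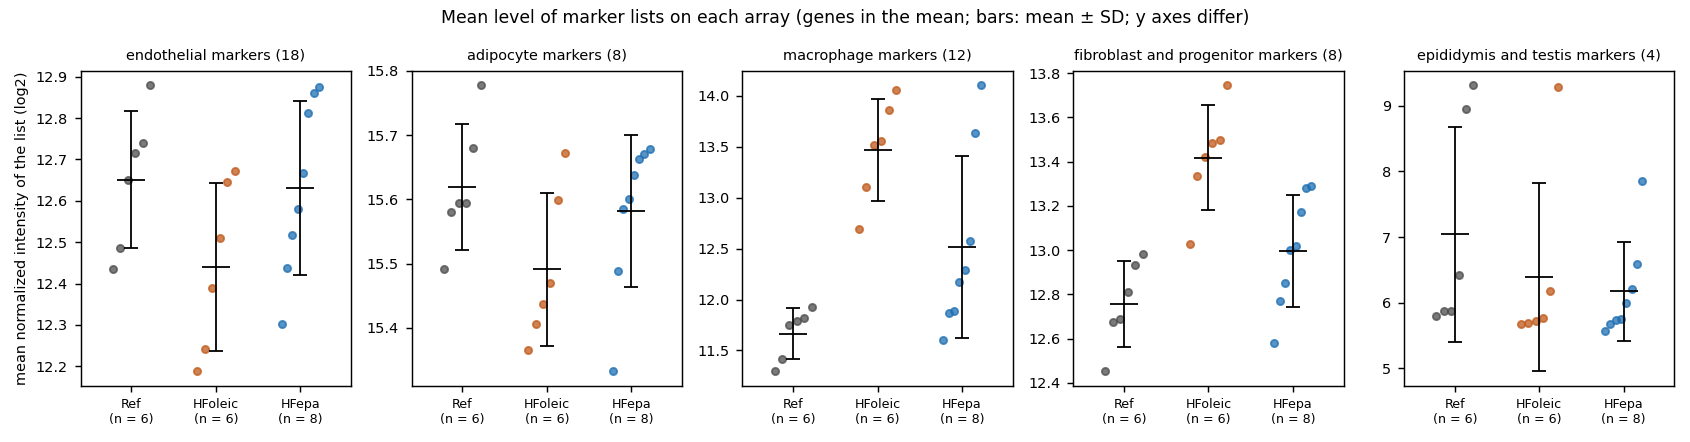
Mean normalized intensity (log2, vertical axes that differ) of 5 marker lists on each array, by group, with the mean and SD as bars and the number of genes in brackets. The macrophage list lies between 12.69 and 14.06 in HFoleic, above the 11.29 to 11.92 of Ref, and 3 arrays stand above 8 in the epididymis and testis list.

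Vegfa, the main growth factor for blood capillaries, had the lowest p-value of the 10 genes in HFoleic vs. Ref. Its log2 level ranged from 13.14 to 13.91 in Ref (median 13.53), from 12.34 to 12.98 in HFoleic (median 12.75) and from 12.70 to 13.94 in HFepa (median 13.43). All 6 HFoleic arrays lay below all 6 Ref arrays, a separation that 14% of all tested genes showed in this comparison, and the HFepa arrays spread over both ranges. Vegfa was 1.75-fold lower in HFoleic than in Ref, with a log2 fold change of -0.81 ± 0.18 (SE) and an adjusted p of 0.00263. The difference was negative on each of the 3 slides, from -1.19 to -0.68. The value of -1.19 is that of slide 2 and rests on 1 HFoleic array.

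In HFepa vs. HFoleic, Vegfa had a log2 difference of 0.64 ± 0.17 (SE), with a 95% confidence interval of 0.28 to 0.99. Of the 8 HFepa arrays, 6 lay above the highest HFoleic array. The adjusted p was 0.117 and did not pass the threshold, although the unadjusted p was 0.00124. It came to 0.0448 with slide as a block and 0.0197 with array weights, and to 0.0463 without HFoleic 1 and 0.0271 without HFepa 1. Over the 14 other settings the adjusted p ranged from 0.0197 to 0.277. HFepa 1 and HFepa 6, with the highest macrophage marker levels of their group, had the lowest Vegfa levels of it on this probe (12.70 and 12.90). This order was not that of every Vegfa probe. HFepa 2 was the lowest HFepa array on A_52_P249424 (9.80) and A_55_P2741794 (8.22), where HFepa 1 had 9.91 and 8.86. On A_51_P482552 the lowest was HFepa 1 (11.53). The part of macrophages in this was not tested. Against Ref, the log2 difference of HFepa was -0.17, with an adjusted p of 0.601.

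Vegfa was read by 4 probes, all on the minus strand of chromosome 17 (build mm9, the build of the deposited files). The brightest probe, at chr17:46154387-46154446, lies near the end of the gene. The probe at chr17:46159226-46159282 lies in the basic stretch of longer, matrix-binding forms, and its sequence is shown because it was the Vegfa probe that did not pass the test in HFoleic vs. Ref. It is an Agilent array probe written 5′ to 3′, and capitals mark the 10 codons of 19 in its reading frame that code for lysine or arginine.
A_55_P2741794: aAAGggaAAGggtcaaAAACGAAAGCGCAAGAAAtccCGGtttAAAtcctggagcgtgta

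The lysine-rich probe had a log2 difference of -0.33 ± 0.17 (SE) in HFoleic vs. Ref and an adjusted p of 0.149. A further probe 1.1 kb from the brightest had a log2 fold change of -0.77 and an adjusted p of 0.00986. So 3 of the 4 Vegfa probes were called, all lower, against 30.8% of all tested probes called in either direction, and the values of the probes were not tested against each other.

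Vegfb, a ligand of Flt1 that is linked to fatty acid handling by the endothelium more than to vessel sprouting, was read by 1 probe. Its log2 level ranged from 11.75 to 12.19 in Ref (median 12.08), from 11.20 to 12.11 in HFoleic (median 11.40) and from 11.20 to 12.04 in HFepa (median 11.64). HFoleic 1 was the highest of its group and lay within the Ref range. Vegfb was 1.42-fold lower in HFoleic than in Ref, with a log2 fold change of -0.51 ± 0.15 (SE) and an adjusted p of 0.0126. Vegfb in HFepa vs. Ref had a log2 difference of -0.40 ± 0.14 (SE), with an adjusted p of 0.112.

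Vegfc, the main growth factor of lymphatic vessels, had an opposite direction to Vegfa and Vegfb. Its log2 level ranged from 9.998 to 10.62 in Ref (median 10.18), from 10.49 to 10.74 in HFoleic (median 10.61) and from 10.28 to 10.93 in HFepa (median 10.67). Ref 2 and Ref 3 lay inside the HFoleic range. Vegfc was 1.26-fold higher in HFoleic than in Ref, with a log2 fold change of 0.34 ± 0.12 (SE) and an adjusted p of 0.0379. Its other probes rose too, by 0.39 (adjusted p 0.00671) and by 0.34 (adjusted p 0.0252). The log2 difference in HFepa vs. Ref was 0.37 ± 0.11 (SE), with an adjusted p of 0.0749.

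The call of Vegfc in HFoleic vs. Ref was lost in 8 of the 20 fits that left out 1 array: without Ref 4, Ref 5, Ref 6, Ref 7, HFoleic 1, HFoleic 5, HFoleic 6 or HFoleic 8. The log2 fold change was 0.28 to 0.40 over all 20 fits, with an adjusted p of up to 0.0929. Within slide 1 the difference was 0.04, and with slide as a block the adjusted p was 0.0590.

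Angpt1, the ligand that activates Tek, had the widest spread of the 10 genes in Ref and in HFepa. Its log2 level ranged from 8.87 to 10.31 in Ref (median 9.04), from 8.12 to 8.54 in HFoleic (median 8.30) and from 7.66 to 9.24 in HFepa (median 8.45). Ref 5 was the highest array of all, and the HFepa arrays reached from below HFoleic into the Ref range. Every HFoleic array lay below every Ref array, and 14% of all tested genes showed a full separation of these groups. Angpt1 was 1.98-fold lower in HFoleic than in Ref, with a log2 fold change of -0.99 ± 0.28 (SE) and an adjusted p of 0.0105. Without Ref 5 it was -0.79, and on the 3 slides it was -1.47 (slide 2, with 1 HFoleic array) to -0.73. Angpt1 in HFepa vs. Ref had a log2 difference of -0.78 ± 0.26 (SE), with an adjusted p of 0.102.

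Angpt2, which loosens vessels for remodelling, was one of the small changes. Its log2 level ranged from 7.72 to 7.93 in Ref (median 7.84), from 7.92 to 8.33 in HFoleic (median 8.03) and from 7.73 to 8.29 in HFepa (median 8.01). Of the 6 HFoleic arrays, 5 lay above the highest Ref array. Angpt2 was 1.20-fold higher in HFoleic than in Ref, with a log2 fold change of 0.26 ± 0.10 (SE) and an adjusted p of 0.0440. This call was lost under 6 of the 14 other settings and in 9 of the 20 fits without 1 array: without Ref 2, Ref 3, Ref 4, Ref 6, HFoleic 4, HFoleic 6, HFoleic 7, HFoleic 8 or HFepa 2. Without 1 array the adjusted p reached 0.108 and the log2 fold change was 0.21 to 0.29. Over the 14 other settings the adjusted p reached 0.152 and the log2 fold change was 0.24 to 0.29. Its second probe was well above background on 2 arrays and was not tested.

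**Figure D3:**
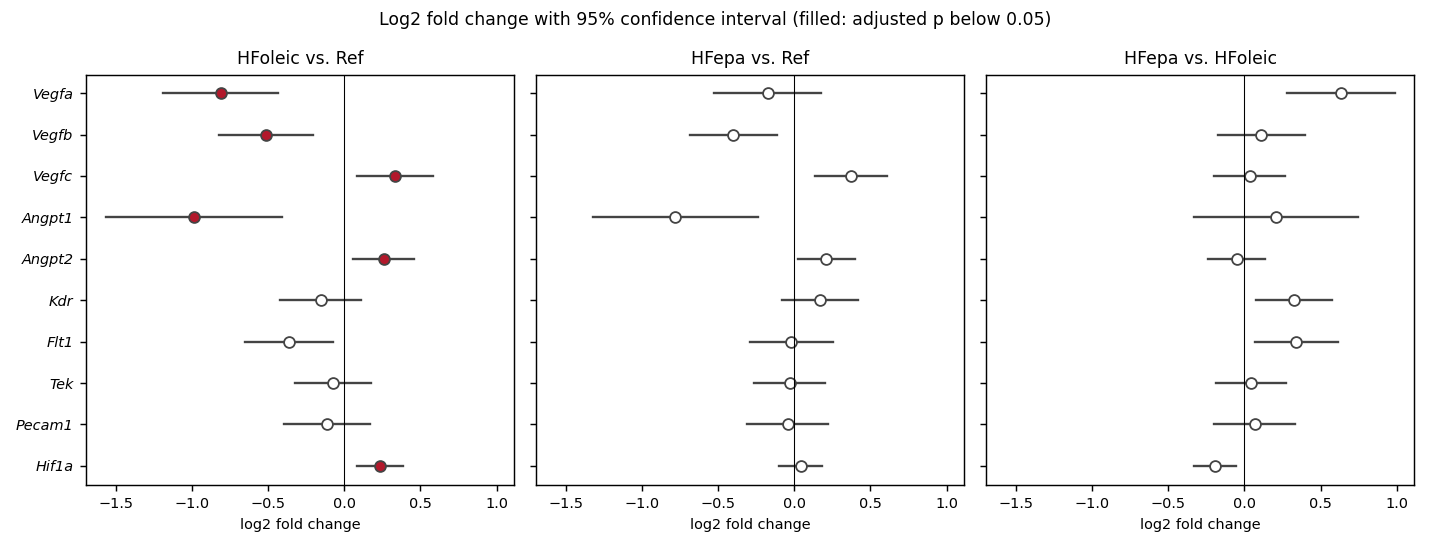
Log2 fold change (horizontal axis) of the brightest probe of each gene in the 3 comparisons, with 95% confidence intervals as lines and filled points where the adjusted p was below 0.05. The 6 filled points are all in HFoleic vs. Ref, from -0.99 for Angpt1 to 0.34 for Vegfc.

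Kdr, the receptor that carries most of the VEGF signal, did not pass the test in any comparison. Its log2 level ranged from 13.06 to 13.24 in Ref (median 13.14), from 12.64 to 13.29 in HFoleic (median 13.08) and from 12.86 to 13.75 in HFepa (median 13.32). The mean log2 level of the 18 endothelial markers ranged from 12.43 to 12.88 in Ref, from 12.19 to 12.67 in HFoleic and from 12.30 to 12.87 in HFepa, and their part in the Kdr and Flt1 values was not tested. The Ref arrays were close together for Kdr, with an SD of 0.07, against 0.27 in each of the high-fat groups. The log2 difference was -0.15 in HFoleic vs. Ref (adjusted p 0.388), with a 95% confidence interval of -0.42 to 0.11. It was 0.33 ± 0.12 (SE) in HFepa vs. HFoleic, with an adjusted p of 0.148 and positive values of 0.24 to 0.60 on the 3 slides. The value of slide 2 (0.44) rests on 1 HFoleic array. A probe annotated to a soluble Kdr form was well above background on 1 array, and a further Kdr probe on 0 arrays, so neither was tested.

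Flt1, the high-affinity receptor of Vegfa and Vegfb, had 4 tested probes, all with negative differences in HFoleic vs. Ref. Of these, 2 were called, and the values of the probes were not tested against each other. On the brightest probe, near the end of the gene at chr5:148373791-148373850 (mm9, minus strand), the log2 level ranged from 13.75 to 13.99 in Ref (median 13.85), from 13.14 to 13.94 in HFoleic (median 13.47) and from 13.52 to 14.22 in HFepa (median 13.81). Of the 6 HFoleic arrays, 4 lay below the lowest Ref array. The log2 difference in HFoleic vs. Ref was -0.36 ± 0.14 (SE), and the adjusted p of 0.0551 missed the threshold. It passed with slide as a block (0.0281), with array weights (0.0126), with only the compared groups (0.0440) and on the mean of the Flt1 probes (0.0101), and without HFoleic 1 (0.0137), HFoleic 7 (0.0372), HFepa 1 (0.0489) or HFepa 5 (0.0449).

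Both Flt1 probes that lie 75.1 and 76.9 kb from the brightest one, at chr5:148448888-148448947 and chr5:148450688-148450747, were called. On the first of them the log2 level ranged from 11.26 to 12.20 in Ref (median 11.86), from 10.87 to 11.64 in HFoleic (median 11.13) and from 11.32 to 12.07 in HFepa (median 11.70). It was 1.56-fold lower in HFoleic than in Ref, with a log2 fold change of -0.65 ± 0.15 (SE) and an adjusted p of 0.00396. On the second the fold change was -0.59 (adjusted p 0.00663), and all HFoleic arrays lay below all Ref arrays. On their brightest probe, 14% of all tested genes showed a full separation of these groups. The fourth probe, 92.2 kb away, was dim, with a mean log2 level of 5.75, and had a difference of -0.06 (adjusted p 0.628). This difference was -0.21 on processed signals (adjusted p 0.447) and -0.21 under median centring (adjusted p 0.119). The array annotates both called probes to the same transcript entry, and the brightest and the fourth probe to other entries. The mean of the Flt1 probes thus joins probes of different entries. Flt1 gives several transcripts, among them a soluble form that lacks the membrane anchor, and which of them each probe measured was not tested.

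In HFepa vs. HFoleic the Flt1 probes had log2 differences of 0.34 (brightest), 0.53, 0.36 and 0.14, with adjusted p-values of 0.158, 0.118, 0.168 and 0.328. Against Ref, the brightest probe in HFepa had a log2 difference of -0.02 (adjusted p 0.948).

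**Figure D4:**
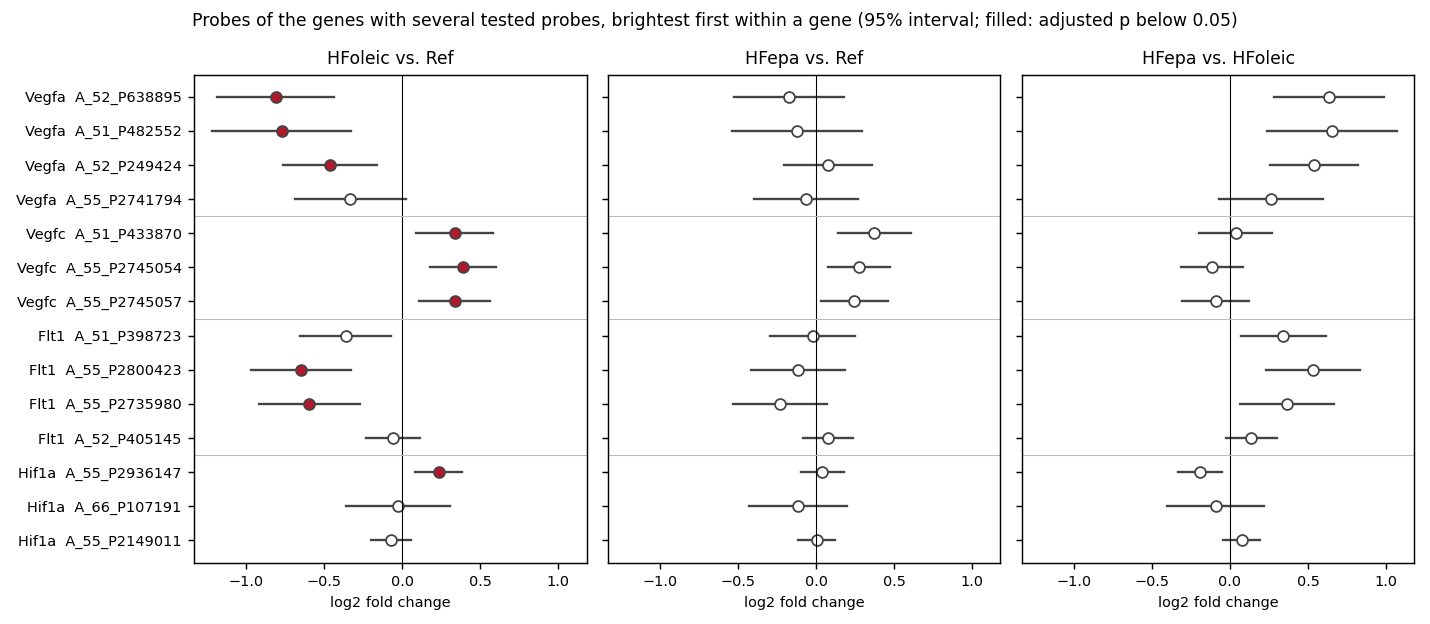
Log2 fold change (horizontal axis) of every tested probe of Vegfa, Vegfc, Flt1 and Hif1a in the 3 comparisons, brightest probe first within a gene, with 95% confidence intervals as lines and filled points where the adjusted p was below 0.05. In HFoleic vs. Ref, 3 of 4 Vegfa, 3 of 3 Vegfc, 2 of 4 Flt1 and 1 of 3 Hif1a probes are filled, and no probe is filled in the comparisons with HFepa.

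Tek, the receptor of both angiopoietins, and Pecam1, an adhesion molecule at endothelial junctions, had overlapping levels in the 3 groups. The log2 level of Tek ranged from 10.04 to 10.63 in Ref (median 10.30), from 10.05 to 10.54 in HFoleic (median 10.20) and from 9.81 to 10.59 in HFepa (median 10.33). That of Pecam1 ranged from 9.43 to 9.96 in Ref (median 9.81), from 9.41 to 10.07 in HFoleic (median 9.62) and from 9.34 to 10.18 in HFepa (median 9.64). No group stood apart from the others for either gene.

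In HFoleic vs. Ref the log2 difference of Tek was -0.07 (95% confidence interval -0.32 to 0.17, adjusted p 0.684) and that of Pecam1 was -0.11 (95% confidence interval -0.40 to 0.17, adjusted p 0.572). No change was detectable with these mice, and the intervals give the range of differences that the data still allow. In the comparisons with HFepa, their log2 differences lay between -0.04 and 0.07.

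Hif1a, the oxygen-sensitive subunit of hypoxia-inducible factor 1, rose slightly in HFoleic vs. Ref. Its log2 level ranged from 11.37 to 11.64 in Ref (median 11.46), from 11.51 to 11.94 in HFoleic (median 11.65) and from 11.36 to 11.63 in HFepa (median 11.54). Of the 6 HFoleic arrays, 4 lay above the highest Ref array and the others within the Ref range. Hif1a was 1.18-fold higher in HFoleic than in Ref, with a log2 fold change of 0.23 ± 0.07 (SE) and an adjusted p of 0.0184. Without HFoleic 4 it was 0.19, with an adjusted p of 0.0540. Hif1a in HFepa vs. HFoleic had a log2 difference of -0.19 ± 0.07 (SE), with an adjusted p of 0.141, which came to 0.0424 with slide as a block.

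The other Hif1a probes did not show this change. One of them, at chr12:75027538-75027597 (mm9), is laid out on the minus strand, opposite to the gene, with a log2 difference of -0.02 (adjusted p 0.929). The other was well above background on only 6 arrays, with a difference of -0.07 (adjusted p 0.407), which was -0.24 (adjusted p 0.0156) under median centring. The mean of the 3 probes gave 0.05 (adjusted p 0.687).

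When the 3 arrays with epididymis and testis marker levels above 8 were left out, an alternative chosen after seeing the data, Vegfa (-0.77, adjusted p 0.0307) and Vegfb (-0.57, adjusted p 0.0373) were called in HFoleic vs. Ref. Angpt1 (-0.98, adjusted p 0.0521), Vegfc (0.33, adjusted p 0.0886), Angpt2 (0.24, adjusted p 0.152) and Hif1a (0.17, adjusted p 0.174) kept their direction and missed the threshold, with 4 Ref and 5 HFoleic arrays left.

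Across arrays, Kdr and Flt1 deviated together. After the group means were removed, the Pearson correlation of their log2 levels over the 20 arrays was 0.855, the highest of the 45 pairs of the 10 genes, which ranged from -0.798 to 0.855 with a median of 0.138. Tek and Pecam1 had a correlation of 0.783, and the pairs of Hif1a with Kdr and with Flt1 had negative ones of -0.798 and -0.726. All values of an array share its RNA sample and normalization, so these correlations are descriptions only. Promoter sequence is shown for Kdr and Flt1, which deviated together, and for Vegfa, which fell in HFoleic vs. Ref. Each run holds the 250 bases before the gene's outermost start (RefSeq, build GRCm38.p6, minus strand, written 5′ to 3′). Capitals mark GGGCGG (the GC box) and GCGTG or ACGTG (letters that a hypoxia response element can hold), on either strand.
Kdr, chr5:75978456-75978705: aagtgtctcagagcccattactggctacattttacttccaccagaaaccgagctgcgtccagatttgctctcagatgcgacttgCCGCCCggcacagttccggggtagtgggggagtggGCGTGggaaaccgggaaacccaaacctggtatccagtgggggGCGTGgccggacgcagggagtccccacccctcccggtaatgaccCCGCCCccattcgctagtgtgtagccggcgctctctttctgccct
Flt1, chr5:147726012-147726261: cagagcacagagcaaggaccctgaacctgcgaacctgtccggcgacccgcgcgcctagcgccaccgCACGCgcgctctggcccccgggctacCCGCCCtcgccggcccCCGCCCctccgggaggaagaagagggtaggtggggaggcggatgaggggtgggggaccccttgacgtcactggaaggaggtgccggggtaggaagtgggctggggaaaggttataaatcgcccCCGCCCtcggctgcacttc
Vegfa, chr17:46032378-46032627: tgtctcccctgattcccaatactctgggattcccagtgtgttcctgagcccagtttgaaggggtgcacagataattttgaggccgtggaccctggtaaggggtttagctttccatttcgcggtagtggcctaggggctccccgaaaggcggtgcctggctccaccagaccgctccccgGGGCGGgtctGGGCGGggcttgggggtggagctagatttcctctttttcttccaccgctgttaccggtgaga

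GGGCGG was matched 2 times in the Kdr window, 3 times in that of Flt1 and 2 times in that of Vegfa, and 32.7% of the 32851 promoter windows of this length hold it. GCGTG was matched 2 times for Kdr, 1 time for Flt1 and 0 times for Vegfa (28.2% of all windows hold it). ACGTG was matched 0 times in these windows and 3 times in that of Hif1a (16.6% of all windows hold it). A match is a run of letters in this window and not a shown binding site. Promoters of 7 of the 10 genes were in the table used.

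The rest of the vascular programme was described with 7 lists of 87 genes that are not among the 10, of which 85 were tested. In HFoleic vs. Ref, 28 of the 85 genes were called, 10 higher and 18 lower, a share of 32.9% beside the 31.8% of all tested genes. The median log2 fold change of the 85 genes was -0.17, against -0.04 over all tested genes. In HFepa vs. Ref, 4 were called (4.71%, against 2.46% of all tested genes). In HFepa vs. HFoleic limma called 0, with 26 of the 85 at an unadjusted p under 0.05, against 20.8% of all tested genes. The number of the 85 genes called in HFepa vs. HFoleic went from 0 to 4 without HFoleic 1, to 10 without HFepa 1, to 7 with slide as a block and to 11 with array weights, and the number of all 25618 tested genes called went from 0 to 1117, 1978, 811 and 3109 in the same fits. Without the 3 arrays with epididymis and testis markers, 12 of the 85 genes were called in HFoleic vs. Ref and 0 in HFepa vs. Ref. The number of all tested genes called also varied over the 14 other settings, of which this is 1. It was 4727 to 10754 in HFoleic vs. Ref and 0 to 1024 in HFepa vs. Ref.

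**Figure D5:**
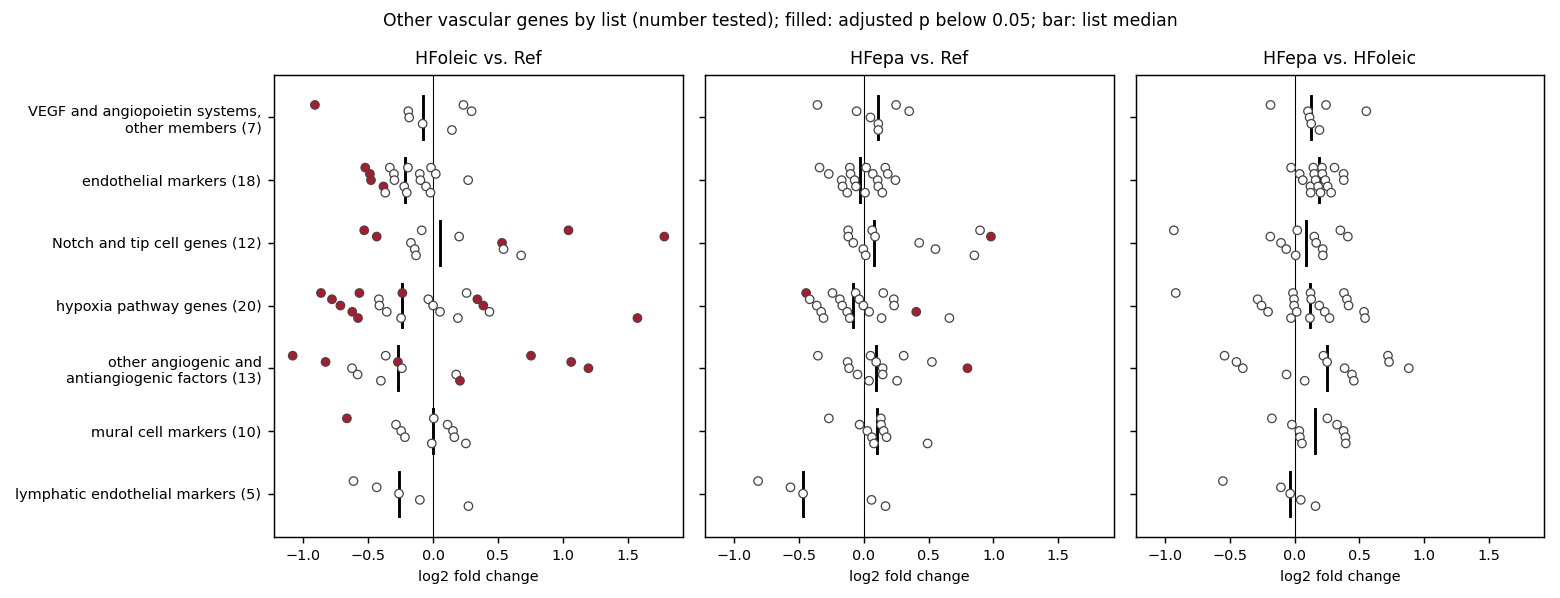
Log2 fold change (horizontal axis) of the 85 other vascular genes in the 3 comparisons, by list, with the number tested in brackets, the list median as a bar and filled points where the adjusted p was below 0.05. In HFoleic vs. Ref, 10 of 20 hypoxia genes and 4 of 18 endothelial markers are filled, where 31.8% of all tested genes were called. No gene is filled in HFepa vs. HFoleic.

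Among the other members of the VEGF and angiopoietin systems, 1 of 7 tested genes changed in HFoleic vs. Ref (14.3%, beside 31.8% of all tested genes). Nrp2, a co-receptor for VEGF and semaphorins, fell with a log2 fold change of -0.91 ± 0.20 (SE) and an adjusted p of 0.00228 on its brightest probe, but the mean of its probes gave -0.05 (adjusted p 0.632). Pgf (placental growth factor) had a difference of 0.23 (adjusted p 0.208), Figf (VEGF-D) of 0.30 (adjusted p 0.228) and Ptprb, a phosphatase that dampens Tek, of -0.19 (adjusted p 0.337).

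Of the 18 endothelial markers, 4 fell and 0 rose in HFoleic vs. Ref, a share of 22.2% beside the 31.8% of all tested genes called. The list median was -0.21, against -0.04 over all tested genes. The 4 were Gpihbp1, which anchors lipoprotein lipase on capillaries (-0.49, adjusted p 0.0189), the transcription factors Sox18 (-0.52, adjusted p 0.0201) and Tal1 (-0.38, adjusted p 0.0166), and Eng, a co-receptor for transforming growth factor beta (-0.48, adjusted p 0.0302). All 4 missed the threshold without the 3 arrays with epididymis and testis markers, with adjusted p-values of 0.0578 to 0.117. The call of Eng was also lost without Ref 2, Ref 3, Ref 4, HFoleic 4, HFoleic 5 or HFoleic 6 (adjusted p up to 0.0788), that of Sox18 without HFoleic 4 (0.0524) or HFoleic 5 (0.0505), and that of Gpihbp1 without HFoleic 4 (0.0550). In HFepa vs. HFoleic, 17 of the 18 endothelial markers had a positive difference. The genes were read on the same arrays, so their directions are not independent. The mean levels of the list overlapped, from 12.19 to 12.67 in HFoleic and from 12.30 to 12.87 in HFepa. The median difference of the list was 0.19, against 0.01 over all tested genes. In that comparison limma called 0 of the 18, with 5 at an unadjusted p under 0.05, against 20.8% of all tested genes.

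Of the 12 Notch and tip cell genes, 3 rose and 2 fell in HFoleic vs. Ref, a share of 41.7% beside the 31.8% of all tested genes called. Aplnr, the apelin receptor, rose by 1.78 ± 0.29 (SE, adjusted p 0.000471), from a mean of 8.32 in Ref to 10.11 in HFoleic, with 9.17 in HFepa. Cxcr4, a chemokine receptor of tip cells and of many leukocytes, rose by 1.04 (adjusted p 0.00430), and Dll4, the Notch ligand of tip cells, by 0.53 (adjusted p 0.00734). Pdgfb, which recruits pericytes, fell by 0.43 (log2 fold change -0.43, adjusted p 0.00890). Without the 3 arrays with epididymis and testis markers, the adjusted p was 0.0604 for Dll4 and 0.0759 for Pdgfb.

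Of the 20 hypoxia pathway genes, 10 were called in HFoleic vs. Ref (50%, beside 31.8% of all tested genes), with 3 higher and 7 lower. Pdk1, a kinase that holds back pyruvate oxidation (-0.57, adjusted p 0.000447), Arnt, the partner of Hif1a (-0.62, adjusted p 0.000681), and Bnip3, a mitophagy receptor (-0.71, adjusted p 0.00331), fell. Car9, a carbonic anhydrase, rose by 1.58 ± 0.36 (SE, adjusted p 0.00308). Its mean was 5.98 in Ref and 7.56 in HFoleic, with an SD of 0.87 around 6.64 in HFepa.

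Among the other angiogenic and antiangiogenic factors, 7 of 13 were called in HFoleic vs. Ref (53.9%, beside 31.8% of all tested genes), 4 higher and 3 lower. Serpinf1 (pigment epithelium-derived factor, an inhibitor of vessel growth) rose by 1.20 ± 0.19 (SE, adjusted p 0.000447), Hgf (hepatocyte growth factor) by 0.76 (adjusted p 0.00250) and Fgf1 (a growth factor that adipocytes make on high-fat feeding) by 1.07 (adjusted p 0.0122). Without the 3 arrays with epididymis and testis markers, the adjusted p of Fgf1 was 0.0712. Angptl4, an inhibitor of lipoprotein lipase, had 0.21 (adjusted p 0.00996), which turned to -0.07 on processed signals and to -0.01 under median centring.

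Of 10 mural cell markers, 1 was called in HFoleic vs. Ref (10%, beside 31.8% of all tested genes). This was Mcam, which fell (-0.66, adjusted p 0.00961). Kcnj8, Abcc9 and Cspg4, which mark pericytes, had differences of -0.29, -0.25 and 0.25 (adjusted p 0.103, 0.163 and 0.311). Of 5 lymphatic endothelial markers, limma called 0 in any comparison, with 0 at an unadjusted p under 0.05. Lyve1 and Prox1 had differences of -0.43 (adjusted p 0.371) and -0.10 (adjusted p 0.792), Reln of -0.61 (adjusted p 0.467) and Pdpn of 0.27 (adjusted p 0.299).

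In HFepa vs. Ref, 4 of the 85 genes were called. Cxcr4 (0.98 ± 0.24 SE, adjusted p 0.0363), Serpinf1 (0.80 ± 0.18 SE, adjusted p 0.0281) and P4ha1, a collagen prolyl hydroxylase (0.40 ± 0.09 SE, adjusted p 0.0303), rose, and Pdk1 fell (-0.44 ± 0.08 SE, adjusted p 0.0158). With only the compared groups in the model, 0 of the 4 passed, with adjusted p-values of 0.0534 to 0.0664. Across the fits without 1 array, 1 to 8 of the 85 genes were called: 1 without Ref 3, Ref 5, Ref 6, HFepa 1 or HFepa 6, 2 without Ref 4 or HFepa 5, and 8 without HFepa 3. In the same fits, the number of all 25618 tested genes called ranged from 100 (without Ref 6) to 1801 (without HFepa 3).

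Genes other than the 10 that deviated most like each of the 10 genes over the 20 arrays, after the group means were removed, were named by the highest Pearson correlation. Flt1 was followed by Efnb1 (0.955), which codes for an ephrin ligand, Ccm2l (0.928) and Arap3 (0.921), and Kdr by Rbbp6 (0.876), Cramp1l (0.875) and Luc7l3 (0.874). Angpt2 was followed by Erg (0.821), a transcription factor that is also among the 18 endothelial markers, and Pecam1 by Lmcd1 (0.888), Tmem39a (0.882) and Podxl (0.872). Tek went with St13 (0.881) and Bmp6 (0.878), and Angpt1 with Papd7 (0.853), Pofut2 (0.809) and Rwdd3 (0.805). Vegfa went with Gm561 (0.905), LOC102641578 (0.902) and Zfp644 (0.894), Vegfb with Accsl (0.934), Ndufb8 (0.929) and Rhbdl1 (0.920), Vegfc with S100a16 (0.845), Tpm1 (0.836) and Mrgprx2 (0.832), and Hif1a with Cyp51 (0.842), Tmed7 (0.838) and Il7 (0.833). They were picked as the highest values over the tested genes and carry no test.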

How the data were processed

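RNA of whole adipose tissue was hybridised to 1-colour Agilent mouse arrays, 1 per mouse. The deposited scanner files, made by the authors with Feature Extraction 10.10.1.1, hold a median signal intensity per spot. Normalized log2 values made with limma by the authors served as an alternative. From the intensities, control spots and spots marked as outliers were left out. Probes well above background on at least 6 arrays were kept, log2 values were quantile normalized, spots of a probe were averaged, and limma 3.58.1 in R 4.3.3 was fitted over all 20 arrays with 3 contrasts, moderated statistics and Benjamini-Hochberg adjustment over 39390 probes. No spot used was saturated. The procedure was run on simulated data with independent noise for each probe and array. Such data lack the deviations that values of a real array share, so this run cannot tell how those affect the calls.

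The genes and lists were chosen with earlier results of these data known. Named list genes are the 4 with the smallest p in HFoleic vs. Ref per list and any called in the other comparisons. Likeness is the highest Pearson correlation, 3 genes each, and array features named by position or transcript model are left out of the text. Probe positions are those of the files (mm9). Alternatives changed the signal, background correction, scaling, filter, probe summary, blocks, weights and arrays. The labels do not say that mice came from separate litters. The sequence of a further Vegfa probe is not reported here.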

Additional observations from a re-analysis of the deposited data

How the results depend on the processing

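Among the 10 genes, Vegfa, Vegfb and Angpt1 were called in HFoleic vs. Ref in all 20 fits without 1 array. Over the 14 other settings Vegfa was always called. Vegfb missed the threshold in 1 of them (adjusted p up to 0.0649) and Angpt1 in 2 (adjusted p up to 0.0749). The number of the 10 genes called ranged from 4 to 7 without 1 array. It was 2 with the replicate block and 2 without the 3 arrays with epididymis and testis markers. In HFepa vs. Ref it was 0 to 0, and in HFepa vs. HFoleic 0 to 1, with 2 with slide as a block and 2 with array weights. Of the 85 other vascular genes, 23 to 32 were called in HFoleic vs. Ref without 1 array, 18 with the replicate block and 12 without the 3 arrays. In HFepa vs. Ref the range was 1 to 8, with 0 with the replicate block, 0 with only the compared groups and 0 without the 3 arrays. In HFepa vs. HFoleic it was 0 to 10, with 7 with slide as a block and 11 with array weights. Of all tested genes, 6640 to 8858 were called in HFoleic vs. Ref without 1 array, 100 to 1801 in HFepa vs. Ref and 0 to 1978 in HFepa vs. HFoleic, and over the other settings 4727 to 10754, 0 to 1024 and 0 to 3109. Of 16 pairs with the same replicate number, 5 had a correlation of their deviations above 0.1, and the values ranged from -0.587 to 0.559. Pairs with different numbers were not compared, so these values cannot tell whether replicate numbers pair the mice. The direction turned for Angptl4 in HFoleic vs. Ref (-0.069 on processed signals, -0.014 under median centring), for Hif1a in HFepa vs. Ref (-0.023 on the mean of probes), for Vegfc in HFepa vs. HFoleic (-0.057 on the mean of probes, -0.069 with the replicate block), and with the replicate block for Pecam1 in HFoleic vs. Ref (0.0040) and for Tek (-0.0059) and Pecam1 (-0.028) in HFepa vs. HFoleic. Without 1 array, small differences also turned: in HFepa vs. Ref the range was -0.075 to 0.024 for Flt1, -0.084 to 0.037 for Tek and -0.113 to 0.012 for Pecam1, and in HFepa vs. HFoleic -0.0046 to 0.088 for Vegfc and -7.4e-05 to 0.110 for Tek. The cause was not tested.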
